A study of Mus musculus with 9 samples.

Results

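Chromosome 4 of the mouse has a 4 Mb block around Foxd3, Jak1 and Ak4 in which 343 of the 157497 regions counted by ATAC-seq lie. ATAC-seq counts the DNA fragments released by a transposase that cuts where chromatin is open, and a region here is a stretch in which the submitters' peak lists placed such open chromatin. The block was selected on its position, as every region that starts from 98 Mb over the next 4 Mb of mm10. It was proposed with the differences of its regions from the NanogKO libraries already known, so all fold changes and calls given below describe the chosen regions and support nothing by themselves. All 343 regions passed the filter on low counts.

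The 9 libraries come from mouse embryonic stem cells in 3 groups of 3, named NanogKO, NanogKO:Esrrb and NanogKO:Esrrb:Nanog. All carry the Nanog knockout by name, were grown in medium with 10% serum and 1000 U/ml LIF without further treatment, and were sorted as PECAM positive and PDGFRA negative cells. The next name adds Esrrb and the last adds Esrrb and Nanog, and the labels give neither the promoter, the dose nor the duration of the added factors. The cell line label is N{delta} for NanogKO and N{delta}:cE:iN for both other groups, while the titles add the codes 44C6, 44J and 44JN. Every comparison with NanogKO is therefore also one between differently named lines, and the 2 cannot be told apart. The groups with Esrrb share a cell line label but not a title code, so whether they are the same line is not settled. Reads per region depend on how open the DNA is and on how many copies of it a cell holds, which a count table cannot tell apart either. No label says that the replicates are separate cultures, so the p values reflect how much these libraries scatter, which could be technical.

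Esrrb is an orphan nuclear receptor and Nanog a homeodomain factor, and both sustain self-renewal of mouse embryonic stem cells. The block holds genes with known roles in such cells. Foxd3 is a forkhead transcription factor that binds enhancers in early embryonic cells and is needed to maintain the epiblast and the neural crest. Jak1 is a tyrosine kinase bound to cytokine receptors, which passes the LIF signal to STAT3. Ak4 is an adenylate kinase of the mitochondrial matrix, and L1td1 is an RNA-binding protein found at high levels in undifferentiated stem cells.

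The promoters of the 3 genes by which the block is known are shown because an open region lies over each of them and because they differ in how that region behaved. Each is the 250 bases before the annotated start, 5′ to 3′ on the gene's own strand, from RefSeq on GRCm38.p6, the assembly of mm10, with CG dinucleotides in capitals. Foxd3 is at chr4:99656049-99656298 on the plus strand, Jak1 at chr4:101265224-101265473 on the minus strand, and Ak4, the first of 4 listed starts, at chr4:101419039-101419288 on the plus strand.
Foxd3: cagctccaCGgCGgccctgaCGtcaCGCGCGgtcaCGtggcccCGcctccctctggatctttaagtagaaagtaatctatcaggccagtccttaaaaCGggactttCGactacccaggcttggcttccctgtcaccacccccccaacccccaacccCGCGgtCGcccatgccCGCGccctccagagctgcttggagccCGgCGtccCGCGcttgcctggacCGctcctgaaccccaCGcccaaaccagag
Jak1: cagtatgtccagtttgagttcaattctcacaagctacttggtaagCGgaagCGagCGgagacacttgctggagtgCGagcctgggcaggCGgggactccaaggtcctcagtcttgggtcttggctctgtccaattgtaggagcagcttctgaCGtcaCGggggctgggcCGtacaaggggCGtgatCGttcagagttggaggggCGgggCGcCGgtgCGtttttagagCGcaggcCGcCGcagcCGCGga
Ak4: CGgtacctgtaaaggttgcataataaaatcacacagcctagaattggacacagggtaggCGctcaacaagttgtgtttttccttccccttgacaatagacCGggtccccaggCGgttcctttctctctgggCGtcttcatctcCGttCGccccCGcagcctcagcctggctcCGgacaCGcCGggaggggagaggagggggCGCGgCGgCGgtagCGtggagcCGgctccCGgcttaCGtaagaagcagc
They hold 21, 19 and 19 CG dinucleotides, where the median promoter of all 32851 windows has 6 and that of the 50 windows in the block 8. Members overlapped 31 of the 50 windows, which belong to 25 genes of 41. The letters AAGGTCA, a form of the site bound by ESRRB, were found on either strand in 1 of the 50 windows (2%) and in 4.08% of all windows. The letters TTCCNGGAA, a form of the STAT site, were in 0 of the 50 and in 0.913% of all. No match says only that these letters are not in the 250 bases searched.

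Library totals ran from 35545030 to 58520948 counts. Summed over the regions at their gene ends, 5 stem cell genes (Pou5f1, Sox2, Zfp42, Dppa5a and Tdgf1, 14 regions) gave 156 to 175 CPM (counts per 1000000 of the scaled library total) in NanogKO, 235 to 269 in NanogKO:Esrrb, then 256 to 290 in NanogKO:Esrrb:Nanog. The primitive endoderm genes Gata6, Sox17, Pdgfra and Sox7 (6 regions) gave 137 to 146, 107 to 131 and 115 to 123 CPM, and Gata4 had no region. Among the fibroblast genes, Col1a1, Col1a2 and Thy1 (8 regions) gave 32.1 to 37.9, 30.2 to 32.9 and 28.4 to 33.4 CPM, and Postn had no region. Open chromatin at a gene end is not expression. The stem cell and primitive endoderm sums thus moved with the groups, and their part in the values of the block was not tested.

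The block took a larger share of the reads in every library with Esrrb than in any NanogKO library. In NanogKO its regions held 0.150%, 0.160% and 0.157% of all counts. In NanogKO:Esrrb they held 0.248%, 0.255% and 0.252%, and in NanogKO:Esrrb:Nanog 0.234%, 0.244% and 0.254%. The means were 0.156% ± 0.0053, 0.252% ± 0.0039 and 0.244% ± 0.010 (SD, n = 3), so NanogKO lay apart from both other groups, which overlapped each other. The share in NanogKO:Esrrb was 1.62-fold that in NanogKO and the share in NanogKO:Esrrb:Nanog 1.57-fold. Set against the counts of the rest of chromosome 4, the same folds were 1.56 and 1.49.

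**Figure D1:**
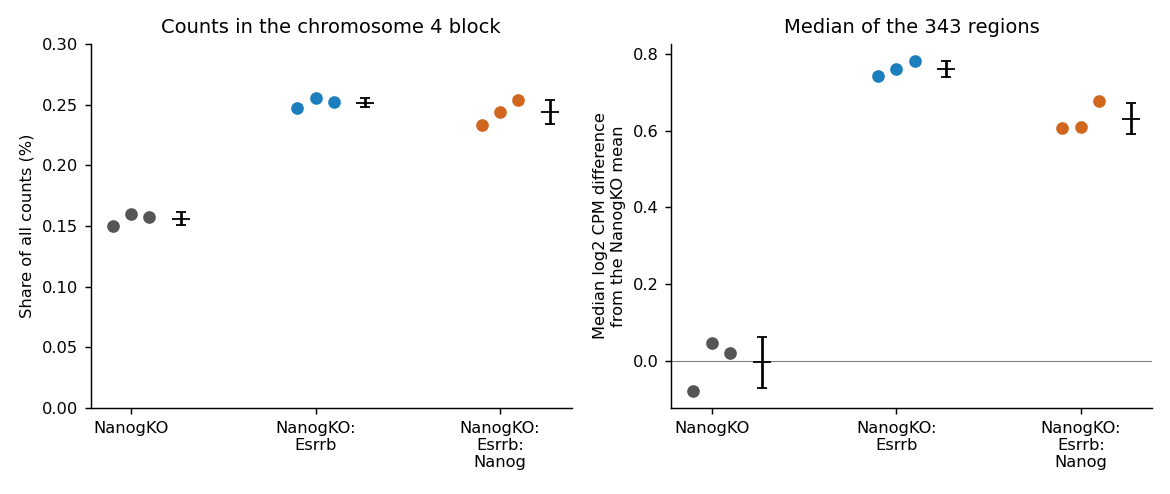
Left, share of each library's counts that fell in the 343 regions of the block (%), by group, and right, the median over the 343 regions of the log2 CPM difference from the NanogKO mean. Points are single libraries and the black bars give mean and SD (n = 3). The 3 NanogKO libraries lie between 0.150% and 0.160%, and the 6 libraries with Esrrb lie between 0.234% and 0.255%.

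Most regions of the block were higher with Esrrb. A region was called higher or lower at an adjusted p under 0.05 in edgeR's quasi-likelihood test, fitted and adjusted over 157439 regions. In NanogKO:Esrrb against NanogKO, 238 of the 343 regions were called higher, 18 lower and 87 were not called, where the background over all tested regions was 20% higher and 17% lower. Their median log2 fold change was 0.78, with 80% of the regions between -0.06 and 1.74, against a median of -0.01 over all regions. In NanogKO:Esrrb:Nanog against NanogKO, 210 were called higher and 25 lower, with a background of 24.9% and 24.4%, and the median log2 fold change was 0.64 against -0.01. The 2 comparisons share the NanogKO libraries. All 3 libraries lay above all 3 NanogKO libraries in 254 regions with NanogKO:Esrrb and in 210 with NanogKO:Esrrb:Nanog, and below them in 23 and 30. Over all tested regions 26.2% and 26.7% lay above and 25.7% and 27.8% below.

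The level of the block in NanogKO:Esrrb:Nanog lay near that in NanogKO:Esrrb, with all 3 library medians somewhat below. In NanogKO:Esrrb:Nanog against NanogKO:Esrrb, 39 regions were called higher, 63 lower and 241 were not called, with a background of 12.6% and 12%. The median log2 fold change was -0.11, against -0.01 over all regions. All 3 NanogKO:Esrrb:Nanog libraries lay above all 3 NanogKO:Esrrb libraries in 51 of the 343 regions and below them in 85. Over all tested regions 18.3% lay above and 19.4% below. Both counts of called regions moved with single libraries. Those called higher fell to 25, 27, 28 and 27 without NanogKO:Esrrb replicate 1, without NanogKO:Esrrb replicate 3, without NanogKO:Esrrb:Nanog replicate 1 and without NanogKO:Esrrb:Nanog replicate 2, and those called lower to 40, 40, 34 and 37. The shares over all regions fell as well in these fits, to 8.51%, 7.96%, 9.30% and 8.37% higher and to 8.25%, 7.66%, 7.51% and 7.78% lower. Without NanogKO:Esrrb:Nanog replicate 3 the counts were 46 and 73, against 15.7% and 16.1% over all regions. Library by library, the median log2 CPM of the 343 regions less the NanogKO mean was 0.74, 0.76 and 0.78 in NanogKO:Esrrb, then 0.61, 0.61 and 0.68 in NanogKO:Esrrb:Nanog. The NanogKO libraries themselves lay at -0.08, 0.05 and 0.02. By position, the 1 Mb window from 100 Mb had the lowest median of the block between the groups with Esrrb, at -0.31. There 4 of 62 regions were called higher and 21 lower, and the median ranked 120 of 123 windows on chromosome 4.

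Along the chromosome most rises with Esrrb lay in one long stretch, whose limits were set by a running median given below. The first 2 windows of 250 kb, from 98 and from 98.25 Mb, held 7 and 8 regions, of which 0 were called higher and 5 and 4 lower in NanogKO:Esrrb against NanogKO. Their median log2 fold changes were -0.42 and -0.59. From 98.50 Mb the median was 0.34 and from 98.75 Mb it was 0.95, with 30 of 37 regions called higher and 1 lower. The 13 windows from 98.75 Mb to the end of the block all had medians from 0.50 to 1.58. The highest, from 101.75 Mb, had 26 of 27 regions called higher in both comparisons with NanogKO, with medians of 1.58 and 1.47.

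A running median over 11 neighbouring regions, a choice made after the values were seen, stayed above 0 from chr4:98670188 to chr4:102511991 in NanogKO:Esrrb against NanogKO. That stretch spans 3.84 Mb and 335 regions, 14 of them beyond the end of the block, with a median log2 fold change of 0.80. By this measure it begins inside Patj and ends inside Pde4b, which is not where single regions begin or cease to be called. Its regions in Patj, at chr4:98670188, chr4:98702170 and chr4:98718740, had log2 fold changes of 0.11, -0.24 and 0.04 and were not called. The first region in it called higher was chr4:98725248-98725750 near L1td1. The 22 members before the stretch had 2 called higher and 11 lower and a median of -0.46, and the 321 members within the stretch had 236 higher and 7 lower. In NanogKO:Esrrb:Nanog against NanogKO the running median fell to 0 or below between Ube2u and Cachd1 and again inside Cachd1, and the stretch that holds Jak1 and Ak4 ran from chr4:100941536 to chr4:102493583 with 138 regions.

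Taken over 2 Mb, both neighbours of the block had median differences of the opposite sign, though the right one did not from its start. In the 2 Mb before it, 3 of 45 regions were called higher and 19 lower in NanogKO:Esrrb against NanogKO, with a median of -0.26. In the 2 Mb after it, 12 of 81 were called higher and 18 lower, with a median of -0.23. There the 250 kb windows from 102 and 102.25 Mb still had medians of 0.34 and 0.59, with 4 of 7 and 1 of 6 regions called higher and 0 lower. The window from 102.5 Mb had a median of -0.58. The medians over 2 Mb in NanogKO:Esrrb:Nanog against NanogKO were -0.50 before and -0.34 after. The rest of chromosome 4 had a median of 0.03 and 22.4% of 10270 tested regions called higher. Ranked by the median of NanogKO:Esrrb against NanogKO among the 123 windows of 1 Mb on chromosome 4 with at least 20 regions, the 4 windows of the block, from left to right, came 6, 2, 4 and 1. Among 1979 such windows of the genome they came 36, 7, 14 and 2. By the median of NanogKO:Esrrb:Nanog against NanogKO they came 9, 2, 29 and 1 on the chromosome and 70, 9, 250 and 4 in the genome.

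**Figure D2:**
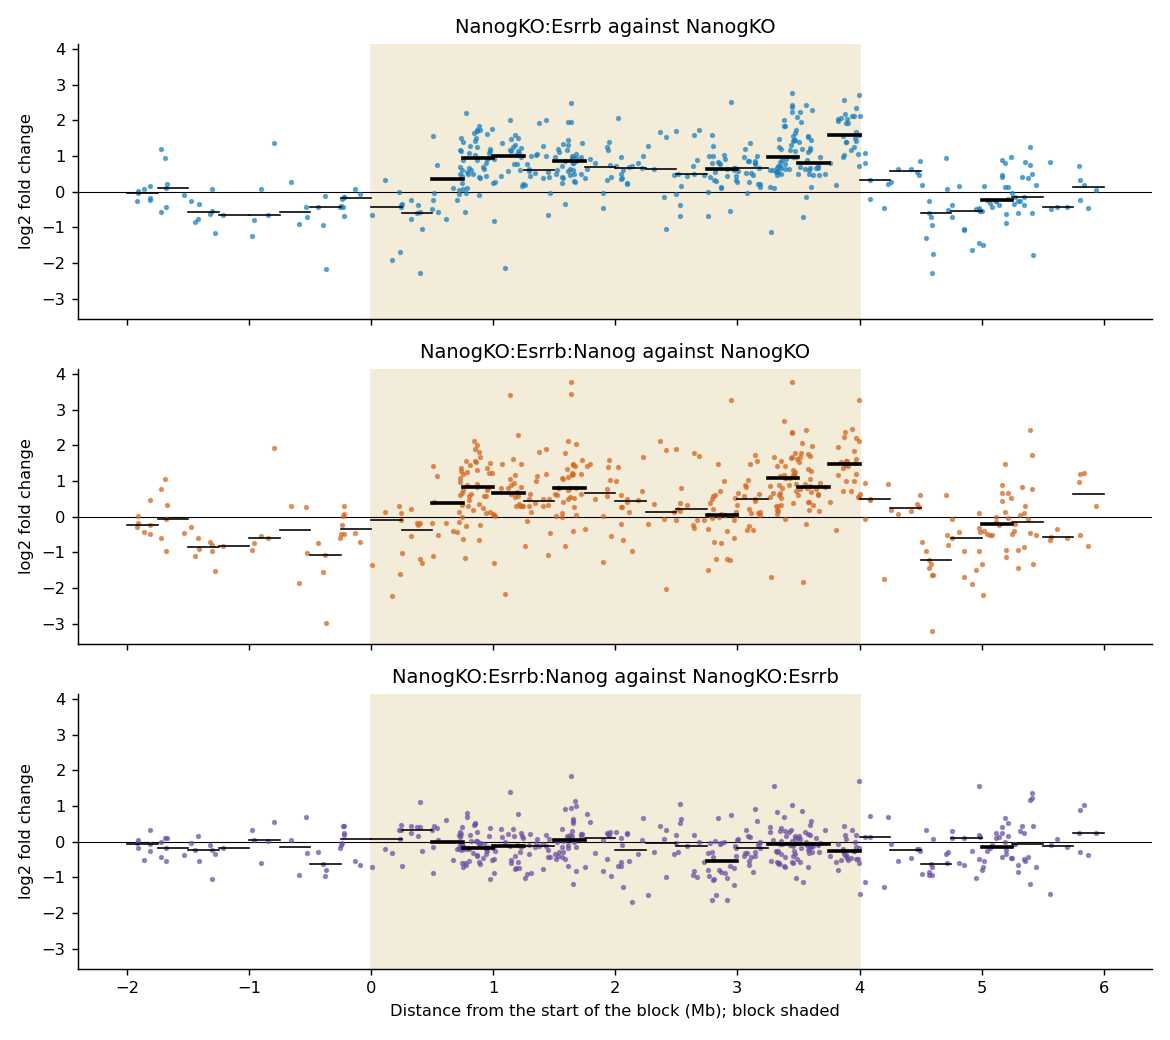
log2 fold change of each region (points) against distance from the start of the block (Mb), with the block shaded, for the 3 comparisons. Black lines are medians of 250 kb windows, thin where a window has fewer than 20 regions. In both comparisons with NanogKO the first 2 window medians inside the block lie below 0 and those from 98.75 Mb, at 0.75 Mb on this axis, lie above it.

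The regions at the edges show where the limits of the block fall. The last regions before it, chr4:97868513-97869314 and chr4:97910830-97911203 in Nfia, had log2 fold changes of 0.09 and -0.06 in NanogKO:Esrrb against NanogKO. The first inside, chr4:98003692-98004563, also in Nfia, had -0.66 and the next, chr4:98108723-98109359, had 0.34. The last 2 inside, chr4:101997468-101997697 and chr4:101998232-101998832, had 1.58 and 0.71. The first 2 beyond it, chr4:102006471-102006581 and chr4:102044470-102044634, had 2.11 and 0.81, the former at 0.073 to 0.129 CPM in NanogKO. The right limit thus lies within the stretch of rises and the left limit lies before it.

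Regions at gene ends were higher in the block too. Among 31 members at a gene end, meaning within 1 kb of either end of a protein-coding gene, 25 were called higher and 2 lower in NanogKO:Esrrb against NanogKO, with a median of 0.60. Over all 23287 such regions the median was -0.07, with 8.46% called higher. Of 162 members inside genes 102 were called higher and 10 lower (median 0.75), and of 150 between genes 111 and 6 (median 0.91). Over all regions inside genes 21.1% were called higher and 17.2% lower, and over those between genes 23% and 17.9%, both with a median of 0.01. In NanogKO:Esrrb:Nanog against NanogKO the 3 kinds had medians of 0.64, 0.50 and 0.76.

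The 23 members at a gene end that had a peak in all 3 lists had log2 fold changes from -0.58 to 1.44 with Esrrb, with an SD of 0.43, against 0.30 over all such regions. Their median was 0.52 in NanogKO:Esrrb against NanogKO, with the middle 50% between 0.37 and 0.64, and 18 were called higher and 2 lower. All 18593 regions of that description had a median of -0.08 and a middle 50% between -0.22 and 0.07. In NanogKO:Esrrb:Nanog against NanogKO the 23 had a median of 0.61, with 19 called higher and 0 lower, against a median of 0.06. Per library the median of the 23 less the NanogKO mean was 0.54, 0.47 and 0.58 in NanogKO:Esrrb, then 0.68, 0.69 and 0.51 in NanogKO:Esrrb:Nanog. The NanogKO libraries lay between -0.03 and 0.04, below all 6 others.

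**Figure D3:**
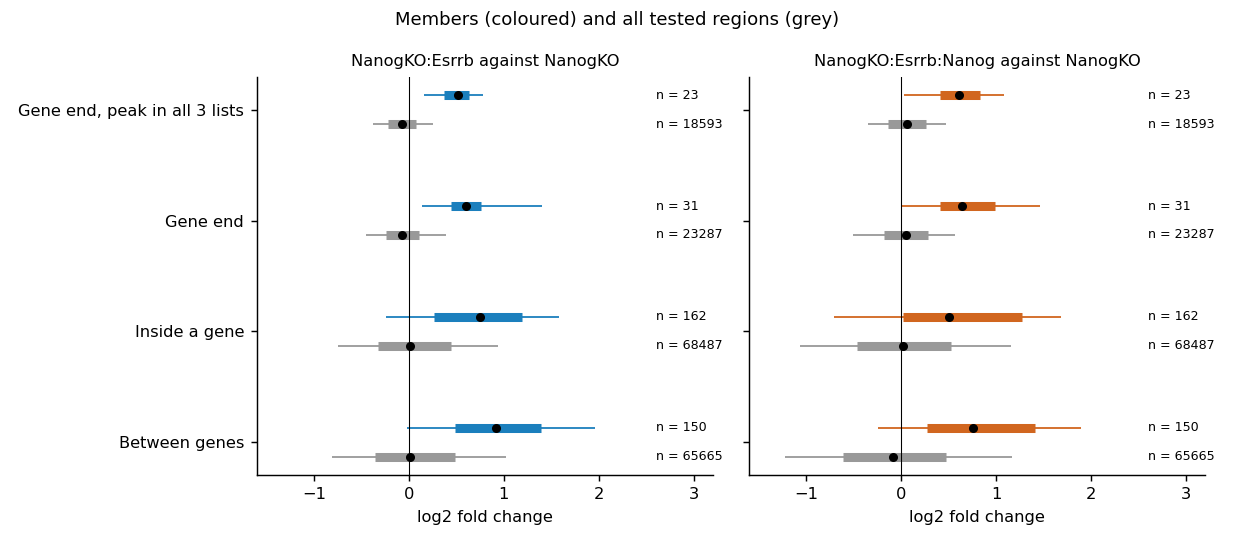
log2 fold change by kind of region in the 2 comparisons with NanogKO, for members of the block (coloured) and all tested regions (grey). Dots are medians, thick bars the middle 50% and thin lines the middle 80%. For gene ends with a peak in all 3 lists the members' median is 0.52 with Esrrb and 0.61 with Esrrb and Nanog, against -0.08 and 0.06 over all such regions.

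By peak list, 154 members had peaks in the lists of all 3 groups and 81 in those of both groups with Esrrb only. The list of NanogKO:Esrrb alone held 50, that of NanogKO:Esrrb:Nanog alone 27 and that of NanogKO alone 14. Another 10 had peaks in NanogKO and NanogKO:Esrrb and 7 in NanogKO and NanogKO:Esrrb:Nanog. Peaks and counts come from the same reads, so the next values describe one quantity seen in 2 ways. The 81 were higher in NanogKO:Esrrb than in NanogKO by a median of 1.22 on the log2 scale, with 70 called higher (86.4%), and over all regions with that pattern the median was 0.80 and 62.4% were called higher. The 14 had a median of -0.90, with 8 called lower (57.1%), against -0.85 and 59.5% over all regions with a peak in NanogKO only. The 154 shared ones had a median of 0.62, with 109 called higher (70.8%) and 9 lower (5.84%), against -0.05, 16.1% and 15% over all such regions. All peak names in the list of NanogKO:Esrrb:Nanog are those of library S8, which is NanogKO:Esrrb replicate 3. A region open only with Nanog and without a peak in that library may thus not have been counted. The names also leave unsettled which libraries this list describes. The classes above, and the gene ends with a peak in all 3 lists, are uncertain to that extent. The 27 in this list alone had 5 called higher and 0 lower in NanogKO:Esrrb:Nanog against NanogKO:Esrrb. Over all such regions 23.5% were called higher and 0.187% lower.

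Of the 30 protein-coding genes that overlap the block, 29 had a member in them or within 10 kb. The most abundant member of each gene, 26 distinct regions, was called higher for 24 genes, lower for 1 and not called for 4 in NanogKO:Esrrb against NanogKO. The figures were 27, 0 and 2 for NanogKO:Esrrb:Nanog against NanogKO, and 2, 5 and 22 between the groups with Esrrb. These counts, and those of each gene below, stand against the shares called over all tested regions. Those shares were 20% higher and 17% lower with Esrrb, and 24.9% and 24.4% with both factors. Between the groups with Esrrb they were 12.6% and 12%. Foxd3, Jak1 and Ak4 are described first below, and the other genes by role.

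**Figure D4:**
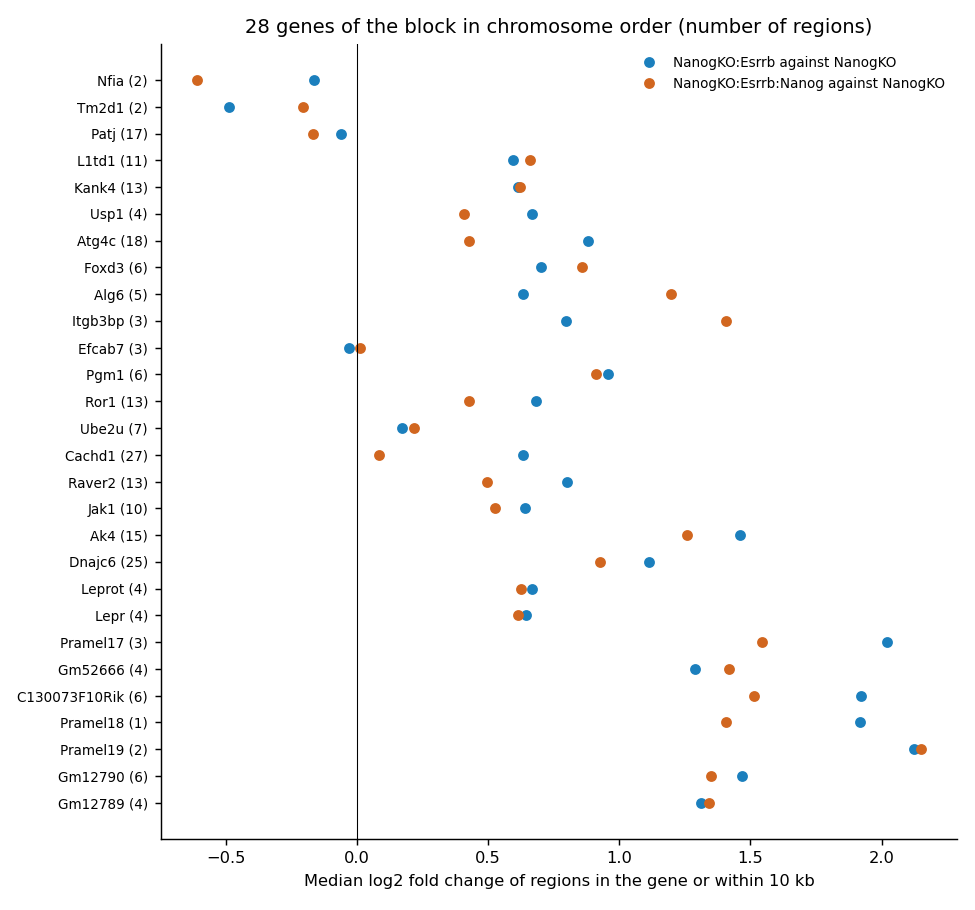
Median log2 fold change of the regions in or within 10 kb of each of 28 genes of the block, in chromosome order from the top, for the 2 comparisons with NanogKO. Numbers in brackets count the regions, and a region near 2 genes counts for both. Nfia, Tm2d1 and Patj have medians below 0 in both, and Ak4 has 1.46 and 1.26.

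At Foxd3 the start of the gene rose, and a pair of distant regions had some of the largest rises of the block. The region over the printed promoter, chr4:99655977-99656452, held 5.37, 5.35 and 5.78 CPM in NanogKO. It held 11.5, 9.76 and 11.1 CPM in NanogKO:Esrrb, then 16.0, 15.9 and 14.4 in NanogKO:Esrrb:Nanog. The 3 groups did not overlap and stood in that order. The log2 fold changes were 0.97 ± 0.13 and 1.49 ± 0.13 (SE) against NanogKO and 0.52 ± 0.12 between the groups with Esrrb. It was chosen here because it covers the promoter, after its values were seen.

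The more abundant region over the body of this single-exon gene, chr4:99656586-99658111, moved less. It held 30.8, 32.1 and 28.5 CPM in NanogKO, 39.5, 33.3 and 39.1 in NanogKO:Esrrb, then 40.8, 38.4 and 31.9 in NanogKO:Esrrb:Nanog, whose lowest library overlapped NanogKO. The log2 fold changes of 0.29 ± 0.12 and 0.28 ± 0.12 had edgeR adjusted p values of 0.050 and 0.048, so the first was not called and the second only just. The first was called with the replicate block (adjusted p of 0.019), with library totals as the scale (0.022), with TMM factors set without chromosome 4 (0.047), with only the 2 groups in the fit (0.020) and without NanogKO:Esrrb replicate 2 (0.029). The second call was lost without any 1 of the 3 NanogKO replicates and without NanogKO:Esrrb:Nanog replicate 1 or 2, with adjusted p values from 0.066 to 0.174, with library totals as the scale (0.140) and with only the 2 groups in the fit (0.064).

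A pair of regions about 19 to 20 kb upstream of Foxd3 rose in steps. At chr4:99636073-99636476 the NanogKO libraries held 0.585, 1.30 and 1.24 CPM, NanogKO:Esrrb 3.56, 5.28 and 3.55, and NanogKO:Esrrb:Nanog 13.3, 10.4 and 20.1. The groups did not overlap, and the log2 fold changes were 1.96 ± 0.25, then 3.79 ± 0.25 against NanogKO and 1.83 ± 0.21 between the groups with Esrrb. At chr4:99636857-99637373 the values were 1.02, 1.29 and 1.52 CPM in NanogKO, 7.27, 7.57 and 6.80 in NanogKO:Esrrb, then 13.8, 12.1 and 15.4 in NanogKO:Esrrb:Nanog. Its log2 fold changes were 2.49 ± 0.17, 3.43 ± 0.17 and 0.94 ± 0.14, again with no overlap. Both regions had a peak in the lists of both groups with Esrrb and none in that of NanogKO.

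Downstream of Foxd3 a region differed with Nanog more than with Esrrb. At chr4:99670168-99670538, 11497 bases from the gene, the values were 5.34, 5.82 and 5.55 CPM in NanogKO, 6.54, 8.32 and 5.46 in NanogKO:Esrrb, then 13.2, 14.0 and 17.2 in NanogKO:Esrrb:Nanog. The first 2 groups overlapped (0.28 ± 0.15, not called) and the third lay above both, by 1.41 ± 0.15 and 1.13 ± 0.15 on the log2 scale. The other members within 10 kb named by abundance, chr4:99662826-99664134 and chr4:99650001-99650910, had log2 fold changes of 0.51 and 0.81 with Esrrb and 0.52 and 1.45 with Esrrb and Nanog. Of all 33 members whose nearest gene was Foxd3, 25 were called higher and 0 lower with Esrrb, and 26 and 1 with both factors.

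At the start of Jak1, the region over the promoter was not called with Esrrb alone and was called higher with Esrrb and Nanog. A second region at that gene end was called higher in both comparisons with NanogKO. The region over the promoter, chr4:101264807-101265521, held 24.6, 21.5 and 23.5 CPM in NanogKO and 28.5, 20.8 and 27.6 in NanogKO:Esrrb, which overlapped, and was not called (0.14 ± 0.14). In NanogKO:Esrrb:Nanog it held 37.1, 39.3 and 25.9 CPM, all above NanogKO, and was called higher by 0.55 ± 0.14. The lowest of these lay within the range of NanogKO:Esrrb. The call of 0.41 ± 0.14 between the groups with Esrrb was lost without NanogKO:Esrrb replicate 2 and without NanogKO:Esrrb:Nanog replicate 1 or 2, with edgeR adjusted p values from 0.116 to 0.186, with library totals (0.081) and with only the 2 groups (0.065). Just inside the gene, chr4:101264331-101264681 rose by 0.60 ± 0.14 and 0.87 ± 0.14. The third region, chr4:101168234-101168651 inside Jak1, was called in no comparison (0.20 ± 0.18 and 0.11 ± 0.18 against NanogKO).

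Of the 10 members in or within 10 kb of Jak1, 5 were called higher and 0 lower with Esrrb (median 0.64), and 6 and 0 with Esrrb and Nanog (median 0.52). Of the 16 members whose nearest gene was Jak1, 6 were called higher and 1 lower in both comparisons, with medians of 0.55 and 0.29. That is 37.5% higher and 6.25% lower. The shares over all regions were 20% and 17% with Esrrb and 24.9% and 24.4% with both factors. Some 35 kb upstream, chr4:101300592-101300997 held 1.85, 1.67 and 1.80 CPM in NanogKO, 1.81, 2.29 and 1.64 in NanogKO:Esrrb, then 4.71, 4.67 and 7.56 in NanogKO:Esrrb:Nanog. The first 2 groups overlapped and the third lay above both, with a log2 fold change of 1.57 ± 0.20 between the groups with Esrrb.

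Related genes outside the block were read in the same way, from regions in or within 10 kb of them. Among the other JAK kinases, Jak2 had 0 of 10 regions called higher and 5 lower with Esrrb, Jak3 1 and 1 of 11, and Tyk2 1 and 2 of 9. A list of JAK kinases and LIF pathway genes, of which 9 of 10 are reported here (Jak2, Jak3, Tyk2, Lifr, Il6st, Stat3, Stat5a, Stat5b and Socs3), had 36 of 104 regions called higher and 12 lower with Esrrb (median 0.24), and 38 and 14 with both factors (median 0.22). Of 8 adenylate kinase genes, 7 are reported here (Ak1, Ak3, Ak5, Ak6, Ak7, Ak8 and Ak9), with 21 of 105 regions called higher and 16 lower with Esrrb (median -0.01), and 31 and 28 with both factors (median 0.11). The FOXD genes Foxd1, Foxd2 and Foxd4 had 0 of 19 regions called higher and 4 lower with Esrrb (median -0.23), and 1 and 1 with both factors (median -0.06). Over all tested regions 20% were called higher and 17% lower with Esrrb, and 24.9% and 24.4% with both factors. The adenylate kinase shares were near these, at 20% and 15.2% with Esrrb and 29.5% and 26.7% with both factors. No test of the difference from Jak1, Ak4 or Foxd3 was made.

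Ak4 stood highest among the 3 genes. All 15 members in or within 10 kb of it were called higher in both comparisons with NanogKO, with medians of 1.46 and 1.26. The region over its printed start, chr4:101418904-101420517, held 25.3, 24.5 and 25.3 CPM in NanogKO, 39.8, 36.7 and 39.9 in NanogKO:Esrrb, then 49.1, 47.7 and 42.6 in NanogKO:Esrrb:Nanog. The groups did not overlap, and the log2 fold changes against NanogKO were 0.63 ± 0.11 and 0.89 ± 0.11. The difference of 0.26 ± 0.11 between the groups with Esrrb was not called, and was called with the replicate block (edgeR adjusted p of 0.030), without NanogKO:Esrrb:Nanog replicate 3 (0.021) and by DESeq2 (0.038).

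Regions deeper in Ak4 changed by different amounts. At chr4:101443741-101443958 the NanogKO libraries held 0.366, 0.569 and 0.547 CPM, NanogKO:Esrrb 3.08, 4.51 and 2.63 and NanogKO:Esrrb:Nanog 6.74, 8.04 and 6.04. That was 6.78-fold and 13.7-fold in the fit, the largest rise with Esrrb among the more abundant members, and the groups did not overlap. At chr4:101446341-101446945 the rise was 2.23 ± 0.22 with Esrrb and 1.68 ± 0.22 with Esrrb and Nanog on the log2 scale. At chr4:101458154-101458800 it was 0.99 ± 0.15 and 0.39 ± 0.15. The latter call was lost without any 1 of the NanogKO replicates or NanogKO:Esrrb:Nanog replicate 3, with edgeR adjusted p values from 0.052 to 0.158, with library totals (0.109) and with only the 2 groups (0.054). Of the 30 members whose nearest gene was Ak4, 30 were called higher with Esrrb and 27 with both factors.

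Pgm1, named for phosphoglucomutase, an enzyme of glycogen and glucose metabolism, lies in the block. Its start, chr4:99929250-99930325, held 24.4, 24.3 and 20.4 CPM in NanogKO, 29.4, 27.1 and 29.8 in NanogKO:Esrrb, then 36.0, 34.9 and 31.7 in NanogKO:Esrrb:Nanog. All 6 libraries with Esrrb lay above all NanogKO libraries, by 0.32 ± 0.11 and 0.57 ± 0.11 on the log2 scale. The first call was lost without NanogKO replicate 3 and without NanogKO:Esrrb replicate 1 or 3, with edgeR adjusted p values from 0.079 to 0.150.

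**Figure D5:**
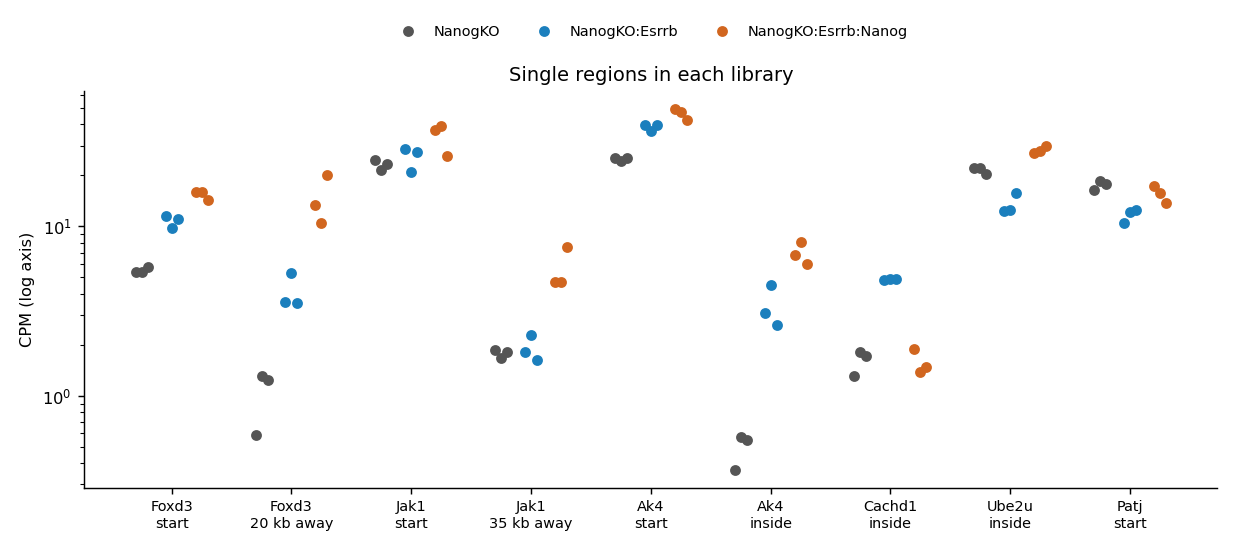
CPM (log axis) of 9 single regions in each library, coloured by group. Foxd3 and Ak4 regions are lowest in NanogKO, the region 35 kb from Jak1 is higher in NanogKO:Esrrb:Nanog only, and the Cachd1 and Ube2u regions differ from both other groups in NanogKO:Esrrb.

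Leprot and Lepr, which share the role of cytokine signalling with Jak1 through the leptin receptor, were higher at their starts. The region at the start of Leprot, chr4:101646888-101648227, held 60.5, 59.4 and 58.1 CPM in NanogKO, 102, 85.5 and 93.9 in NanogKO:Esrrb, then 112, 99.1 and 91.3 in NanogKO:Esrrb:Nanog. The 6 libraries with Esrrb lay above the other 3, by 0.66 ± 0.11 and 0.76 ± 0.11 on the log2 scale. At Lepr the start, chr4:101717153-101718146, held 11.4 to 13.6 CPM, 14.6 to 19.3 and 20.6 to 23.4 CPM in the same order of groups, which did not overlap.

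L1td1, the stem cell gene at the left side of the stretch, had 7 of 11 members called higher and 0 lower in both comparisons with NanogKO. The region at its start, chr4:98726440-98727033, held 18.0, 17.7 and 19.4 CPM in NanogKO, 31.6, 27.5 and 29.5 in NanogKO:Esrrb, then 37.1, 41.5 and 29.8 in NanogKO:Esrrb:Nanog. NanogKO lay below both, by 0.69 ± 0.12 and 0.97 ± 0.12 on the log2 scale. It was named after its values were seen. Beside it, the most abundant member, chr4:98725248-98725750, rose by 0.49 ± 0.11 and 0.62 ± 0.11.

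Patj, which encodes a scaffold protein of the apical polarity complex, lies across the left end of the stretch. Of its 17 members 5 were called higher and 5 lower in both comparisons with NanogKO. The shares over all regions were 20% higher and 17% lower with Esrrb, and 24.9% and 24.4% with both factors. Its start, chr4:98395557-98396645, held 16.5, 18.5 and 17.8 CPM in NanogKO, 10.5, 12.2 and 12.5 in NanogKO:Esrrb, then 17.2, 15.7 and 13.8 in NanogKO:Esrrb:Nanog. NanogKO:Esrrb lay below both other groups, which overlapped. The log2 fold changes were -0.58 ± 0.12 with Esrrb, -0.18 ± 0.12 (not called) with both factors and 0.40 ± 0.12 between the groups with Esrrb. At the neighbouring end of Tm2d1, chr4:98382817-98383359 was the 1 leading member called lower with Esrrb, by -0.38 ± 0.13. That call was lost without NanogKO replicate 1 or 2 and without NanogKO:Esrrb replicate 1 or 2, with edgeR adjusted p values from 0.055 to 0.110.

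Usp1 encodes the deubiquitinase that acts on FANCD2 and PCNA in DNA repair. The region at its left end, chr4:98922744-98924466, held 73.6, 71.0 and 61.4 CPM in NanogKO, 118, 103 and 100 in NanogKO:Esrrb, then 110, 102 and 94.3 in NanogKO:Esrrb:Nanog. NanogKO lay below both other groups, which overlapped, by 0.64 ± 0.11 and 0.57 ± 0.11 on the log2 scale. Itgb3bp, a kinetochore protein gene, shares its leading region with Efcab7, and that region rose by 0.80 ± 0.12 and 0.49 ± 0.12. At Alg6, a glucosyltransferase gene of N-glycan assembly, the start rose by 0.49 ± 0.11 and 0.65 ± 0.11.

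Among receptor and signalling genes, Ror1, a receptor of WNT5A, had its start called only with Esrrb and Nanog in the main fit. Its region chr4:100095686-100097134 held 33.0 to 35.2 CPM in NanogKO, 38.4 to 40.3 in NanogKO:Esrrb, then 43.0 to 48.4 in NanogKO:Esrrb:Nanog. The groups did not overlap, and the differences were 0.22 ± 0.11 (not called) and 0.43 ± 0.11 on the log2 scale. The former had an edgeR adjusted p of 0.044 with the replicate block and 0.049 with library totals. Kank4 had 9 of 13 members called higher and 1 lower with Esrrb, and 9 and 2 with both factors. Its leading member rose by 0.61 ± 0.11 with Esrrb and by 0.62 ± 0.11 with both factors. Atg4c, a protease gene of autophagy, had 12 of 18 called higher and 0 lower with Esrrb, and 7 and 1 with both. Raver2, an RNA-binding protein gene, had 9 of 13 and 8 of 13 called higher and 0 lower. Dnajc6, which encodes auxilin, the clathrin uncoating factor, had 20 of 25 called higher and 0 lower with Esrrb, and 19 and 1 with both factors. Its region chr4:101558123-101558826 rose by 2.42 ± 0.22 in both comparisons.

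Cachd1, which encodes a membrane protein that modulates calcium channels, was the gene with the largest count of falls between the groups with Esrrb. With Esrrb alone 20 of its 27 members were called higher and 0 lower against NanogKO (median 0.63). With Esrrb and Nanog 10 were called higher and 4 lower (median 0.08). Between the groups with Esrrb 1 was called higher and 12 lower (median -0.42), and the 5 largest falls in that comparison, among called members at or above their median abundance whose libraries did not overlap, all lay in this gene.

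At chr4:100790316-100790772 in Cachd1 the NanogKO libraries held 1.32, 1.82 and 1.72 CPM, NanogKO:Esrrb 4.81, 4.92 and 4.87 and NanogKO:Esrrb:Nanog 1.89, 1.38 and 1.47. NanogKO and NanogKO:Esrrb:Nanog overlapped and NanogKO:Esrrb lay above both. The log2 fold changes were 1.58 ± 0.19 with Esrrb, -0.04 ± 0.21 (not called) with both factors and -1.62 ± 0.19 between the groups with Esrrb. At chr4:100911635-100912317 the values were 4.61, 4.39 and 4.48 CPM, then 6.40, 5.12 and 6.65, then 2.07, 2.11 and 1.75, so that the third group was the lowest. The start of Cachd1, chr4:100776431-100777958, was higher in both comparisons with NanogKO (0.41 ± 0.11 and 0.39 ± 0.11) and not called between the groups with Esrrb (-0.03 ± 0.11).

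Ube2u, which encodes a ubiquitin-conjugating enzyme, held regions that moved in opposite directions. At chr4:100498756-100499605 the values were 7.73, 7.77 and 9.06 CPM in NanogKO, 24.8, 25.6 and 29.6 in NanogKO:Esrrb, then 33.9, 26.3 and 31.5 in NanogKO:Esrrb:Nanog. NanogKO lay below both other groups, by 1.70 ± 0.13 and 1.90 ± 0.13 on the log2 scale. Some way on, chr4:100527422-100528226, which overlaps the start of the antisense gene Ube2uos, held 22.1, 22.0 and 20.5 CPM, then 12.3, 12.4 and 15.7, then 27.2, 27.8 and 29.7. This was the largest fall with Esrrb among the more abundant members, at -0.68 ± 0.12, and NanogKO:Esrrb:Nanog lay above NanogKO:Esrrb by 1.07 ± 0.12.

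Other named falls lay at the left side of the block. The region chr4:98003692-98004563 in Nfia, a nuclear factor gene that reaches into the block from the left, held 6.32, 6.52 and 5.76 CPM in NanogKO, 4.07, 3.77 and 3.90 in NanogKO:Esrrb, then 2.78, 1.73 and 2.65 in NanogKO:Esrrb:Nanog. The groups did not overlap, and the log2 fold changes against NanogKO were -0.66 ± 0.17 and -1.36 ± 0.18. In Kank4, chr4:98767234-98767860 fell by 0.57 ± 0.18 and 1.17 ± 0.19 on the log2 scale. Its first call was lost without NanogKO replicate 2 or 3 and without NanogKO:Esrrb replicate 1, with edgeR adjusted p values from 0.053 to 0.071. Between Nfia and Tm2d1, chr4:98243988-98244354 was lower with Esrrb by -0.42 on the log2 scale, a call lost without NanogKO replicate 2 or NanogKO:Esrrb replicate 2, with edgeR adjusted p values of 0.065 and 0.069. Also there, chr4:98254852-98255265 was lower with both factors by -1.02.

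The right end of the block holds a cluster of PRAME-like genes, a family known for members active in the early embryo and germline. Pramel17, Pramel18, Pramel19 and the neighbouring models Gm52666, C130073F10Rik, Gm12790 and Gm12789 had 3, 1, 2, 4, 6, 6 and 4 members in or within 10 kb, and every one was called higher in both comparisons with NanogKO. A region near 2 of them counts for both. Copies in such a family can be near-identical, and the sources used here do not say how reads that fit several copies were counted, so the values of single regions are uncertain. The most abundant, chr4:101883419-101884164 near C130073F10Rik, held 5.29, 6.50 and 5.70 CPM in NanogKO, 26.8, 29.6 and 23.3 in NanogKO:Esrrb, then 28.3, 27.8 and 35.3 in NanogKO:Esrrb:Nanog. NanogKO lay below both other groups, which overlapped, by 2.19 ± 0.13 and 2.38 ± 0.13 on the log2 scale. Near Gm52666, chr4:101873519-101873943 rose 5.95-fold with Esrrb.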

How the data were processed

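Chromatin accessibility was measured in 9 ATAC-seq libraries. The authors deposited raw read counts per region, without normalization, and 3 lists of peak intervals with a score per peak that was not used here. Per the submitters' processing notes the build is mm10 and the tools were MACS2 2.2.0, Bowtie2, bedtools 2.26.0, cutadapt, deepTools 4.4.0, bcl2fastq 2.19.1 and SAMtools 1.4.1 (order not given). The counting tool, any shift of reads for the transposase, duplicate removal and multi-mapping rules are not given in the sources used here. Coordinates are printed counted from 1.

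Counts were fitted with edgeR 4.0.16 in R 4.3.3 on all 9 libraries, with TMM factors, filterByExpr (157439 regions passed) and the quasi-likelihood F test with Benjamini-Hochberg adjustment over all tested regions, leaving 6 residual degrees of freedom. CPM are counts per 1000000 of TMM-scaled library totals, log2 CPM used a prior count of 2, and ± after a log2 fold change is its standard error. Unless another tool is named, every adjusted p is edgeR's. The members and lists were chosen with earlier results of these data known. Named were the most abundant member of each gene (3 for Foxd3, Jak1 and Ak4), the 5 largest non-overlapping rises and falls per comparison among called members at or above their median abundance, and 2 regions on each side of each edge. Genes and promoters are RefSeq GRCm38.p6, in which all genes of the 3 lists of related genes outside the block were matched. A few genes of the block and 1 gene in each of 2 lists are not reported here. Alternatives were other size factors, no filter, DESeq2 1.42.0, the 2 groups alone, each library left out, the inner block and the replicate block.

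Whether replicate numbers pair libraries was checked from the correlation of their deviations from the group means. Libraries of the same number had correlations of 0.117 to 0.152 for NanogKO:Esrrb against NanogKO and of 0.105 to 0.146 for NanogKO:Esrrb:Nanog against NanogKO:Esrrb. These are small but all over 0.1, the limit used, so the numbers may pair the libraries in both. The main fit has no block, so its calls and errors ignore any pairing, and the fit with the replicate block is given below. For NanogKO:Esrrb:Nanog against NanogKO the correlations were 0.0022 to 0.136, not all over 0.1. A pairing by number in the first 2 comparisons would hold here too, so whether the libraries are paired is not settled. The labels name no culture or day in common. The library numbers in the titles run S1 to S3 for replicate 1, S4 to S6 for replicate 2 and S7 to S9 for replicate 3. Only the titles of replicate 3 add a second number, and what these numbers stand for is not given. No 2 libraries of a group were copies (chi-square per region 3.55 to 9.50).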

Additional observations from a re-analysis of the deposited data

How the results depend on the processing

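Of 129 recomputed counts and medians of the block, 112 stayed close to the values reported and 17 moved. Of 1612 recomputed values for named regions, 56 lost a call, 15 gained one and 0 reversed a called direction. The inner 2 Mb, from 99 Mb on, holds fewer regions, 92 and 62 in its windows of 1 Mb. There 102 were called higher and 5 lower with Esrrb (median 0.72), 85 and 12 with Esrrb and Nanog (0.50), and 15 and 37 between the groups with Esrrb. With library totals as the scale, the median of all regions moved to -0.10 in NanogKO:Esrrb:Nanog against NanogKO and to -0.11 against NanogKO:Esrrb, the members' medians to 0.54 and -0.21, and the members called higher in the latter to 25. The split of all calls then went from 24.9% higher and 24.4% lower to 21% and 28.8%, and from 12.6% and 12% to 8.11% and 16.1%. Leaving out 1 library gave 209 to 224 higher and 12 to 15 lower with Esrrb, 191 to 202 and 23 to 30 with both factors, and 25 to 46 and 34 to 73 between the groups with Esrrb, with medians of -0.15 to -0.082 there. The shares over all regions were then 16.3% to 18.2% higher and 13% to 14.7% lower with Esrrb. They were 21.7% to 25.6% and 20.8% to 26% with both factors, and 7.96% to 15.7% and 7.51% to 16.1% between the groups with Esrrb. With the replicate block (the paired fit) 246 were higher and 19 lower, 216 and 28, and 44 and 74. Over all regions the paired fit called 21.5% higher and 18.9% lower, 26.4% and 26%, and 14.9% and 14.1%. It gained the calls named at the Foxd3 body and at the starts of Ror1 and Ak4 and changed no other call among the named regions recomputed. The regions over the Foxd3 promoter and at the start of L1td1 were not recomputed in any setting. Regions named only as a largest rise or fall were recomputed only in the comparison for which they were so named. DESeq2 gave 230 and 18, 211 and 25, and 40 and 57. Its shares over all regions were 19.5% and 17%, 25.1% and 23.5%, and 13.5% and 11.1%.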
